A study of Mus musculus with 188 samples.

Results

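The genes described are 9 members of the complement system, chosen by name: C1qa, C1qb and C1qc (the chains of C1q), C3, C4b, Cfb, the anaphylatoxin receptor genes C3ar1 and C5ar1, and Serping1. All 9 were among the 25655 genes listed for batch 1 and the 25528 listed for batches 2 and 3, and all 9 passed the low-count filter in both sets. The study exposed organotypic brain slice cultures (BSCs), coronal slices of adult C57BL/6J mouse brain of both sexes kept on membrane inserts at the air–liquid interface, to products of red blood cell lysis and to the plasma proteins that bind them. Exposure began on the seventh day in culture, in serum-free medium, and polyadenylated RNA was sequenced. The hemoglobin, albumin and binding proteins were human. Slices have no circulation, so plasma complement and blood leukocytes do not reach them.

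Batch 1 held 10 libraries in each of 6 groups, all taken after 24 h: medium-only control, heme-albumin at 12.5, 50, 200 or 400 µM, and heme bound to hemopexin (hemeHpx) at 200 µM. For the hemeHpx group the sample titles name haptoglobin, whereas the treatment tags and library names give hemopexin, the name used here. Batches 2 and 3 together held controls (10 libraries at 24 h, 9 at 48 h), hemoglobin (Hb) at 200 or 400 µM (10 libraries per dose and time), the hemoglobin–haptoglobin complex (HbHp) at 200 µM (8 per time) or 400 µM (4 at 24 h, 5 at 48 h), and haptoglobin alone (Hp) at 400 µM (12 at 24 h, 11 at 48 h). Of 188 libraries, 167 could be placed in a group. The labels do not say which libraries came from separate animals, so each p-value measures the spread between libraries, which may be partly technical. Total gene counts ran from 11038484 to 44199060 in batch 1, from 32626873 to 54174784 in batch 2 and from 15587938 to 38839614 in batch 3. In batches 2 and 3 a library name begins with E1 or E2, a prefix the labels do not explain. All HbHp libraries carried E2 and belonged to batch 3, while only 3 of 10 controls at 24 h and 2 of 9 at 48 h carried E2, so both batch and prefix were terms of the fit. Levels below are library-size-scaled counts (CPM) with trimmed-mean scaling (TMM), given as lowest, median and highest library. Log2 fold changes carry a standard error, and each adjusted p is from the quasi-likelihood test of edgeR, Benjamini-Hochberg adjusted over all genes tested and called at 0.05. A background is the percentage of all genes tested that were called in that comparison, counting both directions.

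Complement is a protein cascade in which C1q recognises a target, C4 and C3 are cleaved and deposited on it, and factor B, the product of Cfb, amplifies C3 cleavage. The fragments C3a and C5a signal through C3ar1 and C5ar1, and Serping1 encodes the C1 inhibitor that restrains the first step. In the brain, microglia are the main source of C1q and carry both receptors, astrocytes make C3 and C4, and complement tagging of synapses for microglial removal is a well-known role.

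The RefSeq promoter table (GRCm38.p6) held 5 of the 9 members: C1qb, C1qc, C3, C3ar1 and C5ar1. The 4 of them that varied with microglia marker genes are shown as the 250 bases before the annotated start. All 4 lie on the minus strand and are printed 5′ to 3′, with motif matches in capitals: C1qb at chr4:136886201-136886450, C1qc at chr4:136892915-136893164, C3ar1 at chr6:122856158-122856407 and C5ar1 at chr7:16259339-16259588.
C1qb: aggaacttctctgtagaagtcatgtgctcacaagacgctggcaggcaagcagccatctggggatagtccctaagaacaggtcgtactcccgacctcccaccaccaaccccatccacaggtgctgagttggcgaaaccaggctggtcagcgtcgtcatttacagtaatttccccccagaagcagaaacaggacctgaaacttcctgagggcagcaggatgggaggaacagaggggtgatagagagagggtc
C1qc: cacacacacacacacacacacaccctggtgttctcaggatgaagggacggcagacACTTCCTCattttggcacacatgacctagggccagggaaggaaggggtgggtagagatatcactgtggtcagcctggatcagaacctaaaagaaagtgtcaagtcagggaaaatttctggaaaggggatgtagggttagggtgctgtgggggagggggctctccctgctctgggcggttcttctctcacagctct
C3ar1: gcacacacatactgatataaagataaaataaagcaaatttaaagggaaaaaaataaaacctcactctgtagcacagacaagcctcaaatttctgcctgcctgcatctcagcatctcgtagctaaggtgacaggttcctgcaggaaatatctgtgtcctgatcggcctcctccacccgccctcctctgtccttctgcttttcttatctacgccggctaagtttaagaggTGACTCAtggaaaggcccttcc
C5ar1: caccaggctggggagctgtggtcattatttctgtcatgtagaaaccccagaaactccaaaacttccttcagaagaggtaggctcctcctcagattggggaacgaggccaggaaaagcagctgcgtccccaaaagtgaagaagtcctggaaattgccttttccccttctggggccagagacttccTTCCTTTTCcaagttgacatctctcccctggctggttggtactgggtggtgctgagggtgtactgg
C1qb and C1qc sit close together on chromosome 4, where C1qa also lies. Exact matches to 5 motifs were sought on both strands, and the windows searched ran 50 bases past the start. The motifs were PU.1 (GAGGAAGT, held by 3.2% of 32851 RefSeq promoter windows), AP-1 (TGANTCA, 7.81%), IRF (GAAANNGAA, 8.56%), NF-kB (GGANTTTCC, 1.25%) and STAT (TTCNNNGAA, 8.3%). The capitals in C1qc are a PU.1 match on the other strand beginning at −195, those in C3ar1 an AP-1 match at −22, and those in C5ar1 an IRF match on the other strand at −66. C1qb and C3 held none of the 5, and no window held more than 1 match. No motif was matched in more than 1 of these genes, and whether the sequences bear on their shared variation was not tested.

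In control slices the C1q chains had the highest levels per kilobase of exon of the 9 genes, and Cfb the lowest. In batch 1 controls the levels were 320 ± 170 CPM per kb for C1qa, 262 ± 127 for C1qb and 142 ± 73.7 for C1qc (SD, n = 10). C3 followed at 141 ± 28.5, C4b at 93.2 ± 15.2, Serping1 at 58.9 ± 14.7, C3ar1 at 54.5 ± 22.8, C5ar1 at 18.4 ± 7.98 and Cfb at 4.96 ± 1.2. C1qc exceeded C3 in only 5 of 10 libraries and Serping1 exceeded C3ar1 in 7 of 10, so these neighbours did not separate beyond their spread. C1qa exceeded C1qb, and C1qb exceeded C1qc, in 10 of 10 libraries. In the batch 2 and 3 controls the order was the same for the C1q chains and for Cfb at the bottom, with C1qa at 316 CPM per kb at 24 h and 507 at 48 h. C3ar1 stood above Serping1 there, and at 48 h C4b stood above C3 (83.5 against 63.5 CPM per kb). The length used joins all annotated exons of a gene, 1931 bases for C1qc and 2325 for Serping1. Their longest transcripts were shorter, with 1154 and 1719 windows of 50 bases, so the places of both genes depend on the length used. Before division by length, C1qc stood above C1qb in these controls at 24 h (means 346.5 and 276.3 CPM). Reads shared with other genes limit the levels of Cfb and C4b. Cfb shares 81.4% of its 50-base windows with the overlapping gene Gm20547 on the same strand. C4b shares 35.2% with its near-identical neighbour C4a. C4a was not among the genes listed in the counts, so its level could not be set beside that of C4b.

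Microglia were present by their markers. Of 16 microglia markers, 15 passed the filter, with Tyrobp at a median of 89.4 CPM in batch 1 controls, while Siglech was at or near 0 in every group (highest library 0.244 CPM). Neutrophil markers were at or near 0, with S100a8 at most 5.62 CPM and Ly6g at most 0.311.

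**Figure D1:**
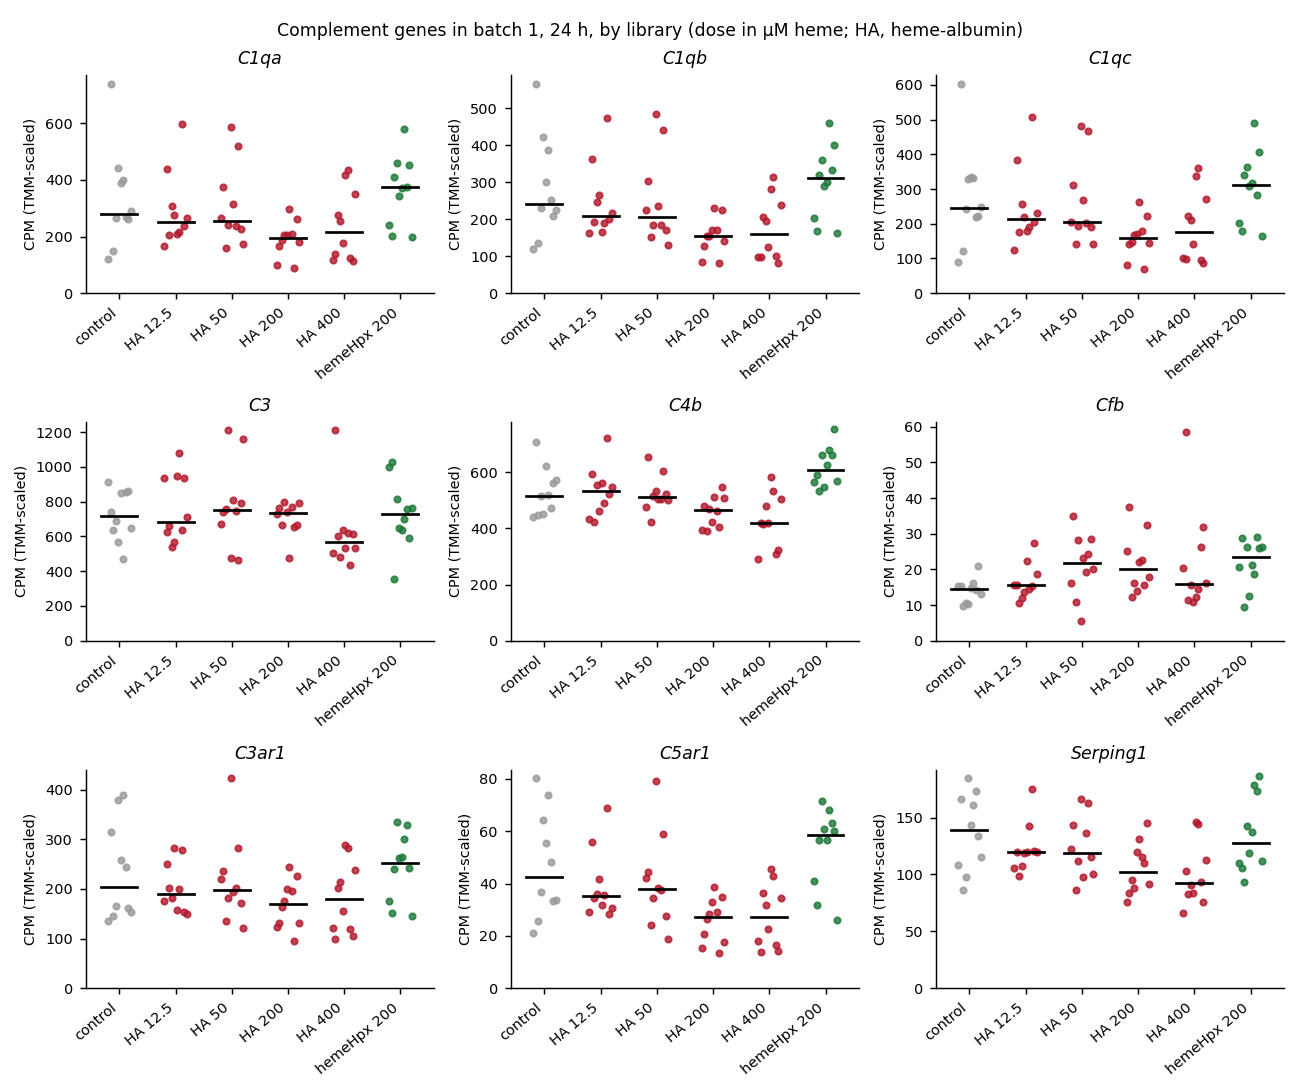
CPM of each of the 9 complement genes in the 60 batch 1 libraries (y axis, linear from 0), by treatment at 24 h (x axis); each point is a library and each bar the group median. C1qa, C1qb, C1qc and C5ar1 sit lower at 200 and 400 µM heme-albumin and highest in hemeHpx, with overlapping ranges, and C3 shows no such shift.

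With heme-albumin, C1qb and C5ar1 fell at both 200 and 400 µM, C1qa fell at 200 µM, and C4b and Serping1 fell at 400 µM. Of the 9 genes, none passed at 12.5 µM (background 0.045% of genes tested), none at 50 µM (0.463%), 3 fell at 200 µM (13.6%) and 4 fell at 400 µM (29%). Of all 15554 genes tested, 1027 fell at 200 µM and 2226 at 400 µM. None of the 9 rose at any dose in this fit, although Cfb passed as higher at 200 and 400 µM in some other fits. In a bulk sample, fewer cells of a type and less RNA per cell cannot be told apart.

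C1qa had 119, 280.0 and 740.3 CPM (lowest, median, highest of 10) in controls, 166, 252.5 and 599 at 12.5 µM, and 159.7, 254 and 586 at 50 µM. It had 89.1, 196 and 297 at 200 µM, and 113.5, 218 and 434 at 400 µM. The 10 libraries at 200 µM were narrower and lower but overlapped the controls, with 2 below all of them. The log2 fold change was −0.81 ± 0.28 at 200 µM (adjusted p = 0.0419), a call lost without the low-count filter (0.0621) and with the 2 groups fitted alone (0.0575), and −0.47 at 400 µM (0.207).

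C1qb, the second chain, had 119, 240.4 and 567 CPM in controls, 81.3, 155 and 230.0 at 200 µM, and 82.1, 160.0 and 314 at 400 µM. It fell by 0.89 ± 0.26 at 200 µM (adjusted p = 0.0174) and by 0.71 ± 0.26 at 400 µM (0.0357), the second call being lost without the filter (0.0541) and with those groups alone (0.0878). C1qc, the third chain, had 90.7, 246 and 603 CPM in controls, 70.2, 158 and 262.5 at 200 µM, and 86.4, 177 and 361 at 400 µM. Its log2 fold changes of −0.79 ± 0.28 (adjusted p = 0.0527) and −0.51 (0.176) did not pass the test, although the first passed with the GC and length correction (0.0208) and with the sex letter as a term (0.0473).

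C5ar1, the receptor for C5a, had 21.2, 42.4 and 80.2 CPM in controls, 13.35, 27.4 and 38.6 at 200 µM, and 13.9, 27.2 and 45.4 at 400 µM. It fell by 0.87 ± 0.24 (adjusted p = 0.011) and 0.77 ± 0.24 (0.0125). C3ar1, the receptor for C3a, had 135, 205 and 389.6 CPM in controls, 96.0, 169 and 244 at 200 µM, and 98.4, 179 and 288 at 400 µM. Its log2 fold changes were −0.48 (adjusted p = 0.134) and −0.37 (0.203), so only the C5a receptor passed, although the difference between the receptors was not tested.

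C4b, which encodes complement component C4, had 439, 516 and 707 CPM in controls, 390.3, 464 and 547 at 200 µM, and 291, 419 and 581 at 400 µM. At 400 µM 6 of 10 libraries lay below every control, and the gene fell by 0.31 ± 0.10 (adjusted p = 0.0137), a call lost with the 2 groups fitted alone (0.0738). Serping1 had 86.3, 139 and 185 CPM in controls, 75.7, 103 and 145 at 200 µM, and 66.3, 92.2 and 146 at 400 µM. It fell by 0.46 ± 0.14 at 400 µM (adjusted p = 0.0132), with ranges that overlapped, and its value at 200 µM was −0.38 (0.0714), which passed with the sex letter as a term (0.0375) and with the GC and length correction (0.0496).

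C3, the component on which all routes of activation converge, had 469, 715 and 915 CPM in controls, 478, 734 and 798 at 200 µM, and 433, 569 and 1215 at 400 µM. Its log2 fold changes were −0.04 (adjusted p = 0.921) and −0.23 (0.303). Cfb had 9.64, 14.55 and 20.9 CPM in controls, 5.62, 21.7 and 34.97 at 50 µM, 12.2, 20.0 and 37.6 at 200 µM, and 10.8, 15.9 and 58.7 at 400 µM. Its values were positive, 0.60, 0.62 and 0.64, but missed the threshold at each of these doses (adjusted p = 0.364, 0.096 and 0.051). The value at 400 µM passed with DESeq2 (0.0375), the sex letter as a term (0.0399) and at least 10 counts in every library (0.0473). That at 200 µM passed with the 2 groups alone (0.0385). Both passed with the codes in the library names as a block (0.0228 at 400 µM and 0.017 at 200 µM). Of the Cfb libraries, 5 of 10 at 200 µM and 3 of 10 at 400 µM lay above every control. No fit left out the highest library at 400 µM (58.7 CPM). No member differed between 400 and 200 µM (background 1.27%), with log2 fold changes from −0.19 to 0.34.

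Hemopexin-bound heme is the scavenged form of heme. Against medium-only controls none of the 9 genes passed in hemeHpx (background 8.2%). C1qa had 199, 374 and 581 CPM (log2 fold change 0.13, adjusted p = 0.78), C5ar1 26.15, 58.5 and 71.5 CPM (0.18, 0.625), C4b 533, 608 and 755.5 CPM (0.22, 0.122) and Cfb 9.40, 23.6 and 29.1 CPM (0.64, 0.0848). These ranges overlapped those of the controls in each case, and Cfb passed with the 2 groups fitted alone (0.0441). With the codes in the library names as a block, both C4b (0.0288) and Cfb (0.0136) passed as higher.

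Against heme-albumin at the same 200 µM, 5 of the 9 genes were higher in hemeHpx and none lower (background 25.9%). Of all 15554 genes tested, 2016 were higher and 2006 lower. C1qa was 1.91-fold higher (0.93 ± 0.28, adjusted p = 0.0121), with 7 of 10 hemeHpx libraries above every heme-albumin library. C1qb, with 164, 311 and 459 CPM in hemeHpx, was 1.95-fold higher (0.96 ± 0.26, 0.00703), and C1qc, with 165, 312 and 490.0 CPM, 1.92-fold (0.94 ± 0.28, 0.0133). C5ar1 was 2.08-fold higher (1.06 ± 0.24, 0.00157). C4b had the smallest of the 5 differences, 1.35-fold (0.43 ± 0.10, 0.00169), yet 9 of 10 hemeHpx libraries lay above all 10 heme-albumin libraries.

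C3ar1 had 145, 252 and 335 CPM in hemeHpx (0.54 against heme-albumin, adjusted p = 0.0564), and Serping1 93.5, 128 and 186 CPM (0.36, 0.054). Both missed the threshold, and both passed with DESeq2 (0.0438 and 0.0456). C3, with 355, 728 and 1026 CPM, and Cfb differed by 0.05 (0.848) and 0.02 (0.957).

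**Figure D2:**
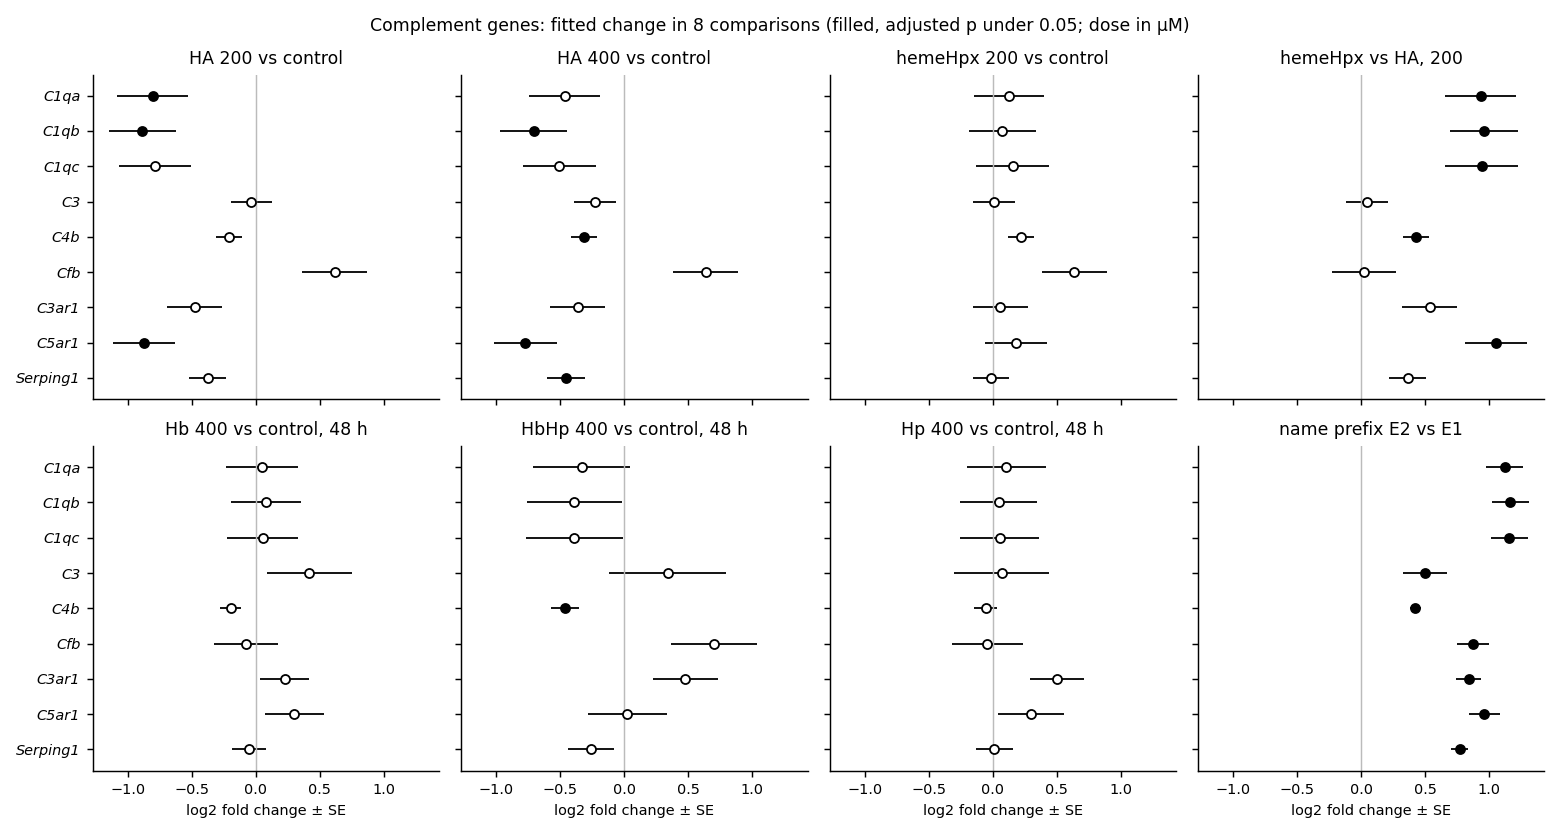
Log2 fold change with its standard error for each of the 9 genes (rows) in 8 comparisons (panels; HA is heme-albumin, dose in µM); filled points passed at adjusted p 0.05. The calls are 3 falls at 200 µM and 4 at 400 µM heme-albumin, 5 higher genes in hemeHpx against heme-albumin, lower C4b in 400 µM HbHp at 48 h, and all 9 genes higher with name prefix E2.

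Microglia markers moved with these results. The summed level of the 16 markers ran at 739, 1155 and 2104 CPM in controls, 563, 896 and 1158 at 200 µM heme-albumin, 579, 921 and 1428 at 400 µM, and 844, 1374 and 1832 in hemeHpx. Of the 15 tested, 9 fell at 200 µM and 7 at 400 µM with none rising, among them Gpr34 (−2.10, adjusted p = 1.65e-06, at 200 µM) and Cx3cr1 (−1.36, 0.00397), and 12 were higher in hemeHpx than in heme-albumin. Of all genes tested, 13.6%, 29% and 25.9% were called in these comparisons. Their median log2 fold changes were −0.72, −0.70 and 0.78, beside −0.48, −0.46 and 0.54 for the 9 complement genes. The median over all genes tested was −0.01, −0.01 and 0.01.

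As a share of the microglia marker sum, C1qa ran at 16.1, 24.3 and 35.2% in controls, 15.8, 22.2 and 25.7% at 200 µM heme-albumin, 19.1, 23.5 and 30.6% at 400 µM, and 22.8, 26.2 and 31.7% in hemeHpx. C5ar1 ran at 2.86, 3.43 and 4.14% in controls, 2.28, 3.04 and 3.43% at 200 µM, 2.12, 2.91 and 3.38% at 400 µM, and 3.10, 4.12 and 4.56% in hemeHpx. The shares overlapped between groups for both genes, and the part of the markers in the complement results was not tested. Astrocyte markers moved as well: 5 of 10 fell at 200 µM (13.6% of all genes called) and 8 of 10 at 400 µM (29%), and their sum ran at 8582, 11620 and 12710 CPM in controls, 6927, 8714 and 11610 at 200 µM, and 5886, 7995 and 10110 at 400 µM. Their part in the lower C4b was likewise not tested.

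**Figure D3:**
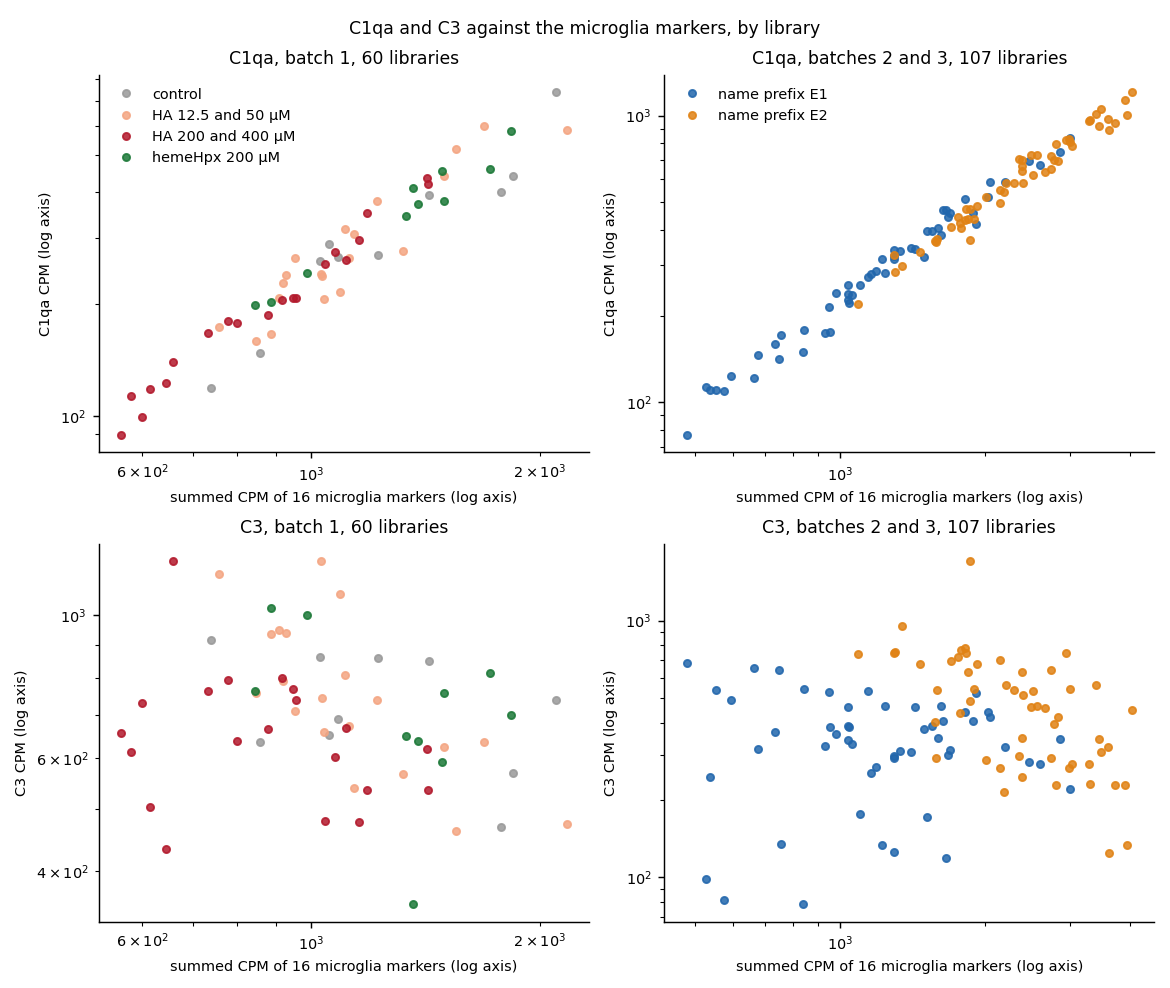
CPM of C1qa and of C3 (y axes, log scale) against the summed CPM of 16 microglia markers (x axis, log scale), 1 point per library of batch 1 and of batches 2 and 3. Colours give the treatment in batch 1 and the name prefix in batches 2 and 3. C1qa lies close to a line in both sets, whereas C3 shows no such relation.

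The other complement genes were followed through a list of 47, of which 34 passed the filter in batch 1. At 200 µM heme-albumin 6 of 34 fell and none rose, beside 13.6% of all genes called: Itgam, a chain of complement receptor 3 (−0.88, adjusted p = 0.019), C5ar2, the second C5a receptor (−0.95, 0.0193), the regulator clusterin (Clu, −0.39, 0.00957), the terminal components C6 (−0.69, 0.0269) and C7 (−1.05, 0.0375), and the collectin Colec12 (−0.52, 0.00895). At 400 µM 13 fell and 1 rose, beside 29% of all genes. C6 fell by 1.24 (1.67e-05), Hc, which encodes C5, by 0.79 (0.00151) and Cd46 by 0.32 (0.0113), while Colec11, a lectin pathway recognition protein, rose by 1.07 (0.00266). The list medians were −0.35 and −0.30. None of the 34 passed in hemeHpx against controls, and 11 were higher in hemeHpx than in 200 µM heme-albumin (25.9% of all genes called), led by Itgam (1.05, 0.00388) and including the properdin gene Cfp (0.52, 0.0149).

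Inflammatory genes were examined beside the complement genes. At 400 µM heme-albumin, with 29% of all genes called, 4 of 11 rose, the chemokine genes Cxcl1 (1.41) and Ccl2 (1.07), the cytokine gene Il6 (1.10) and the NF-kB inhibitor gene Nfkbia (0.37), and the acute phase gene Serpina3n fell by 0.39. At 200 µM Cxcl1 (0.89) and Ccl2 (0.63) rose and none fell (13.6% of all genes called).

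Hemoglobin gave no call among the 9 genes at either dose or time. The backgrounds were 0.0971% and 0.522% of genes at 24 h for 200 and 400 µM, and 0.31% and 0.601% at 48 h. C1qa had 111, 299.6 and 707 CPM in 24 h controls, 111, 268 and 728 at 200 µM Hb and 109.5, 285 and 785 at 400 µM. At 48 h it had 146.5, 459 and 1135 CPM in controls, 236, 431 and 923 at 200 µM, and 141.5, 428 and 969 at 400 µM. The ranges almost coincided at 24 h and overlapped at 48 h, where that at 200 µM was narrower than in controls. The log2 fold changes of C1qa lay between −0.15 and 0.10, each with a standard error of 0.27 or 0.28. C4b at 48 h gave −0.18 ± 0.08 at 200 µM Hb (adjusted p = 0.897) and −0.20 ± 0.08 at 400 µM (0.476). At 200 µM 6 of 10 libraries lay below every control and 1 above, and at 400 µM 4 lay below and 2 above. The change with time in Hb did not pass for any member either. That interaction gave 0 calls among 16473 genes by edgeR, with 118 genes at an unadjusted p under 0.05, so its background was 0%.

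**Figure D4:**
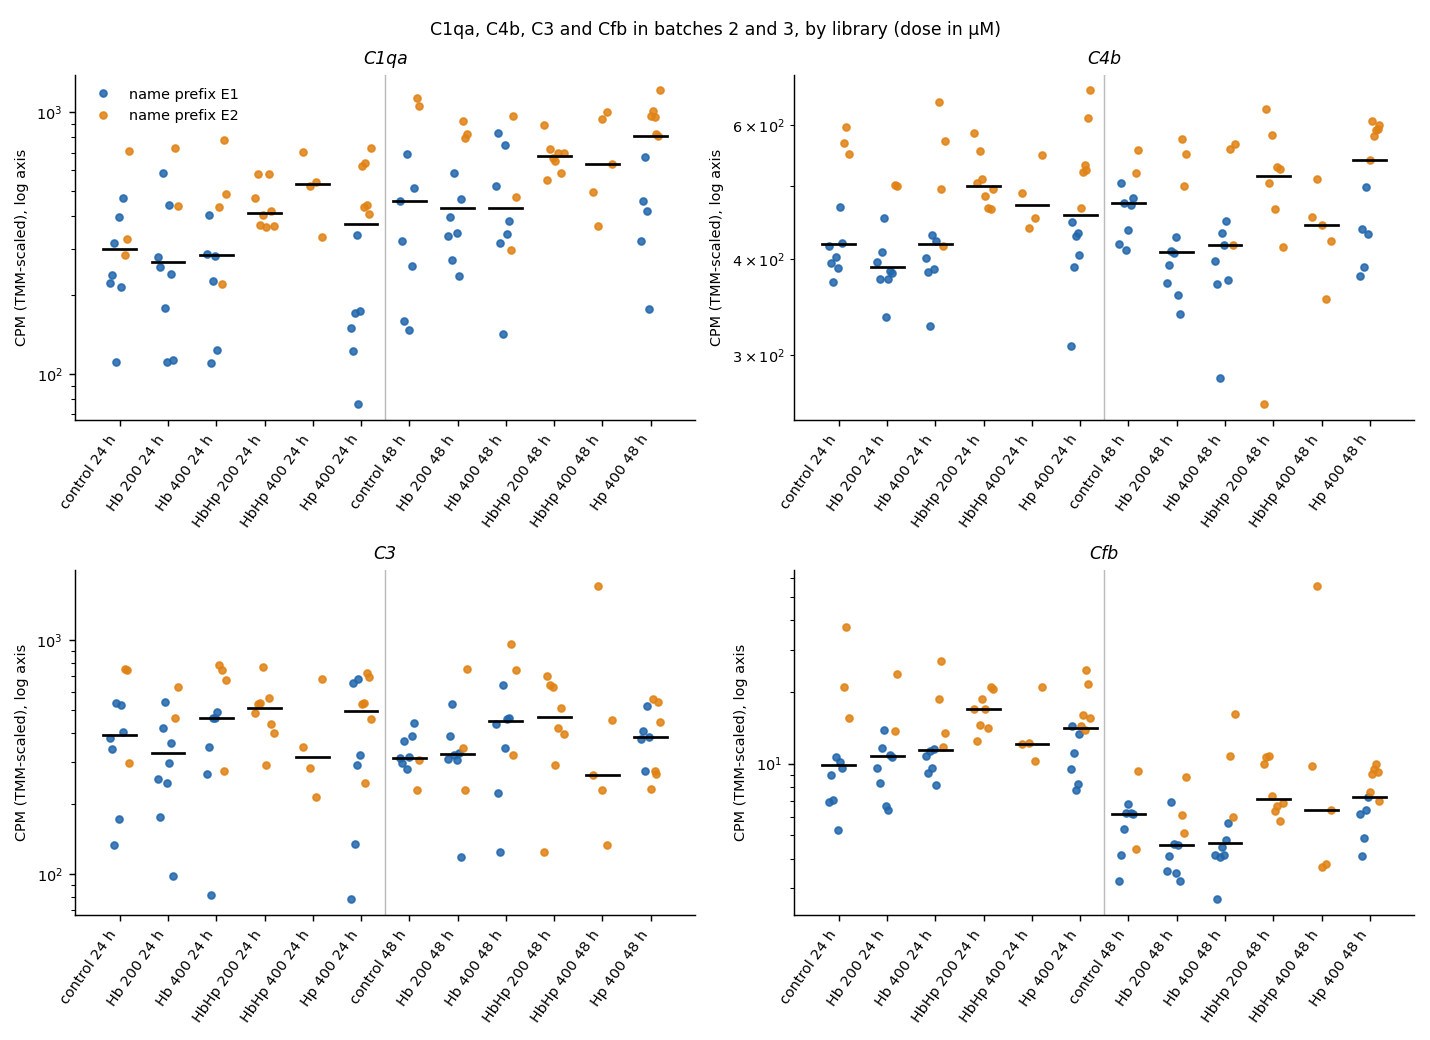
CPM of C1qa, C4b, C3 and Cfb in the grouped libraries of batches 2 and 3 (y axis, log scale), by treatment, dose and time (x axis); points are libraries, coloured by name prefix, and bars are group medians. In the Hp group at 24 h the E2 libraries of C1qa sit between 408 and 728 CPM, above every E1 library, and the HbHp groups hold E2 libraries only.

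C4b was lower with the hemoglobin–haptoglobin complex at 48 h in the fit with batch and prefix. No member passed at 24 h (background 1.93% at 200 µM and 5.15% at 400 µM), and C4b alone passed at 48 h at each dose (11.9% at both). C4b had 412, 474 and 557 CPM in 48 h controls, and 259, 514 and 629.9 at 200 µM HbHp. The 5 libraries at 400 µM HbHp had 454.5, 509.7, 443.9, 355.1 and 423.1 CPM. All of these ranges overlapped, and the median at 200 µM was above that of the controls before the prefix was taken into account. The log2 fold change was −0.30 ± 0.10 at 200 µM (adjusted p = 0.0333) and −0.46 ± 0.11 at 400 µM (0.00211).

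Neither call held under every fit. At 200 µM the value was −0.19 among E2 libraries alone (adjusted p = 0.564), −0.14 with a GC and length correction (0.293), −0.03 with a batch term only (0.891) and 0.0402 with neither term, and leaving out control replicate 8 ended the call (0.0619). At 400 µM it was −0.36 among E2 libraries alone (0.275), −0.35 with the 2 groups alone (0.183) and −0.19 with a batch term only (0.398). Since no HbHp library carried E1 or belonged to batch 2, the size of the difference rests on the prefix and batch terms. At 48 h only 1 control library was both batch 3 and E2. Without those terms the treatment cannot be told apart from the prefix and the batch.

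Haptoglobin alone offers a comparison inside batch 3. No member passed in Hp against controls at 24 h (background 0.704%) or 48 h (10.8%), where C4b gave −0.06 (adjusted p = 0.74). HbHp against Hp at 400 µM gave no call at 24 h (0.619%) and C4b alone at 48 h (1.44%), with −0.41 ± 0.10 (0.0125). The 6 E2 libraries of Hp at 48 h had 540.6, 591.7 and 607.6 CPM of C4b, above all 5 HbHp libraries, which carry the same batch and prefix. That difference stayed called among E2 libraries alone, was −0.23 (0.595) with a batch term only, and was −0.35 (0.101) without HbHp replicate 4. HbHp against Hb at 200 µM gave no call at 24 h (0.607%) or 48 h (4.98%), and the interaction of time with HbHp gave none (0.0121%).

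The remaining members had no call in HbHp or Hp. C1qa had 363, 412 and 581 CPM at 200 µM HbHp at 24 h, and 701.5, 521.6, 540.9 and 334.1 CPM in the 4 libraries at 400 µM. At 48 h it had 550.5, 680.0 and 889 at 200 µM and 495.1, 367.4, 943.5, 1001 and 635.6 CPM in the 5 libraries at 400 µM. All of these libraries lay within the control range of their time, with every group median above that of the controls, while the fitted differences were negative, −0.34 at 200 µM at both times, −0.10 at 400 µM at 24 h and −0.33 at 48 h (adjusted p from 0.561 to 0.933).

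C3ar1 had 105, 221 and 497 CPM in 48 h controls, 407, 486 and 602 at 200 µM HbHp, and 202, 444.5 and 511 in Hp. Its fitted values were 0.40 (adjusted p = 0.264), 0.48 at 400 µM HbHp (0.232) and 0.50 in Hp (0.106), and the first turned to −0.0016 among E2 libraries alone, while with a batch term only it was 0.83 (0.0292).

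At 400 µM HbHp and 48 h, 1 library stood above the others for C3 and Cfb. The 5 libraries had 265.9, 1708, 229.0, 133.9 and 455.8 CPM of C3 and 9.79, 55.8, 3.69, 3.79 and 6.38 CPM of Cfb, the same replicate 2 being far above the rest in both. C3 gave 0.34 (adjusted p = 0.70) with all 5. Cfb gave 0.70 (adjusted p = 0.171) with that library and −0.74 (0.0742) without it, and 1.27 (0.0136) with that library and a batch term only. Serping1 was also highest there, at 179.4 CPM against 79.9 to 94.2 in the other 4, and gave −0.26 (0.381) with it and −0.54 (0.0326) without it.

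Marker and inflammatory genes are given beside these values. At 400 µM HbHp and 48 h, 1 of 15 microglia markers fell, P2ry12 (−0.93, adjusted p = 0.000966), the list median being −0.36. Of 11 inflammatory genes 5 rose, beside 11.9% of all genes called, among them Il6 (1.49), Tnf (1.17) and Cd14 (1.10). These values include replicate 2, which stood apart for C3 and Cfb, and all 5 libraries carried E2. Values without that library are not given for these genes. Of the 35 other complement genes tested in batches 2 and 3, C6 fell (−1.38, 0.01) and Itgax, a chain of complement receptor 4, rose (1.44, 0.00221). C6 also fell at 200 µM at 48 h (−1.13, 0.0186, background 11.9%), and Itgax also rose in Hp at 48 h (1.44, 0.000965, 10.8%). Cr2, complement receptor 2, rose at 400 µM HbHp at 24 h (2.35, 0.0164, 5.15%), a group of 4 libraries. Since no HbHp library carried E1 or belonged to batch 2, the HbHp values rest on the prefix and batch terms, and C6 was itself higher in E2 libraries. Values of these genes under the other fits are not given here.

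Between 24 and 48 h in control slices Cfb was the only member to change (background 4.5%). It had 5.25, 9.86 and 37.4 CPM at 24 h and 3.23, 6.17 and 9.31 at 48 h, and fell by 0.98 ± 0.25 (adjusted p = 0.0117). Among the few E2 libraries alone the value was −1.95 (0.0975). Gm20547, which shares most of its windows with Cfb, fell too, from a median of 13.6 to 10.2 CPM (−0.62, 0.0208), so reads of the pair cannot be told apart fully. Il6 fell by 1.64, Cxcl1 by 1.20 and Ccl2 by 0.47 over the same interval. The C1q chains had higher medians at 48 h, with log2 fold changes of 0.62 for C1qa (0.19), 0.60 for C1qb (0.199) and 0.63 for C1qc (0.179), none of them a call.

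The name prefix went with differences in every member. All 9 genes were higher in E2 than in E1 libraries with group and batch in the fit (background 68%). Of all 16473 genes tested, 5949 were higher in E2 and 5250 lower. The log2 differences were 1.12 ± 0.15 for C1qa (2.18-fold, adjusted p = 8.12e-11), 1.17 for C1qb, 1.16 for C1qc, 0.96 for C5ar1, 0.84 for C3ar1, 0.87 for Cfb, 0.77 for Serping1 (2.49e-18), 0.50 for C3 (0.00713) and 0.42 for C4b (2.1e-15). Within the Hp group at 24 h, all of it batch 3, C1qa ran at 76.7, 160.35 and 338 CPM in 6 E1 libraries and at 408, 532 and 728 in 6 E2 libraries. C5ar1 ran at 21.4, 36.1 and 60.6 against 76.2, 105 and 123 CPM, and Serping1 at 54.7, 61.6 and 78.8 against 90.7, 124 and 172. The E1 and E2 ranges did not overlap for any of these 3 genes. In the same group they overlapped for C3, at 78.2 to 684 CPM in E1 and 245.4 to 719.3 in E2, and for Cfb. Other groups did not separate as cleanly. In batch 2 controls at 24 h, C1qa ran from 110.7 to 396.1 CPM in 6 E1 libraries and from 284.2 to 326.8 in 2 E2 libraries. The share of all genes without overlap was not computed.

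Among microglia markers 14 of 15 were higher in E2 and 1, Sall1, lower, and 23 of 35 other complement genes were higher and 1 lower, including higher C2 (0.81), C1ra (0.74) and C6 (1.72). The share of other complement genes called was near the 68% of all genes. All 10 interferon-stimulated genes and all 8 oligodendrocyte markers were also higher. What the prefix stands for was not tested. Libraries that share a code in their names also share the prefix, and these p-values count each library as separate.

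The sex letter of the library name (M against W or F) went with smaller differences. In batch 1 Serping1 alone passed, at −0.28 in M libraries (adjusted p = 0.0347, background 2.71%), a call lost with the GC and length correction (0.106). In batches 2 and 3, 5 members were lower in M libraries and 1 higher (12.8%). C1qa gave −0.39 (0.0128), C1qb −0.38 (0.0139), C1qc −0.43 (0.00629), C5ar1 −0.37 (0.00485) and C3ar1 −0.27 (0.0134), and Cfb gave 0.43 (0.00156). C3 gave 0.38 (0.0505) and passed as higher with DESeq2 (0.0236), RLE scaling (0.0487), a minimum of 10 counts in every library (0.0409) and the GC and length correction (0.0455). C4b gave 0.09 (0.0642) and passed with that correction (0.0254). Of the 15 microglia markers 13 were lower in M libraries in batches 2 and 3, and none in batch 1. The difference between the sets was not tested. The letter is part of the code in the library name, so libraries that share a code also share the letter. These p-values count each library as separate, and the letter was not fitted with the codes as a block.

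Across libraries the 9 genes split by how they varied together. Pearson correlations of log2 CPM are given first over the 60 libraries of batch 1 and then over the grouped libraries of batches 2 and 3. They describe libraries that share groups, depth and prefix. C1qa followed C1qc (0.995 and 0.998), C1qb (0.981 and 0.997), C5ar1 (0.937 and 0.966) and C3ar1 (0.889 and 0.913) closely, and the microglia marker sum equally so (0.965 and 0.991). Serping1 (0.754 and 0.654) and C4b (0.781 and 0.367) followed C1qa more loosely, and C3 (−0.295 and 0.011) did not rise with it. Within groups the correlation with C1qa was 0.762 and −0.162 for C4b, 0.713 and 0.393 for Serping1, and −0.423 and −0.273 for C3, so that of C4b turned negative in batches 2 and 3. C3 and Cfb correlated at 0.407 and 0.462.

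Among 15322 genes ranked by the lower of both correlations, those most like C1qa were Cd300c2 (0.978 and 0.983), Selplg (0.977 and 0.977), itself on the microglia list, and Ctsd (0.979 and 0.977). Those most like C3 were Scube3 (0.686 and 0.698), Lbp (0.681 and 0.734) and Traf1 (0.658 and 0.744), far looser than for C1qa. C4b was closest to 2310022B05Rik (0.796 and 0.823), Tbc1d9b (0.885 and 0.785) and Nrbp2 (0.891 and 0.785). Serping1 was closest to Cxcl12 (0.903 and 0.88), Dcn (0.857 and 0.856), a fibroblast marker, and Ifitm1 (0.854 and 0.886).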

How the data were processed

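Polyadenylated RNA of mouse BSCs was sequenced after TruSeq mRNA preparation. The authors deposited whole-number read counts per gene and library, and the submitters' processing notes name featureCounts (no version given) and the GRCm39 build; the aligner and strand setting are not given in the sources used here. Library groups were taken from the labels. The 21 libraries whose labels do not give 1 group (20 tagged 400 µM with a tag and a title that name different proteins, 1 control with both 24 h and 48 h) entered no comparison.

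Counts were scaled by TMM and fitted with edgeR 4.0.16 (R 4.3.3; glmQLFit, glmQLFTest) after filterByExpr (smallest count 10, smallest total 15), leaving 15554 genes in batch 1 (6 groups, no covariate) and 16473 in batches 2 and 3 (12 groups, with batch and name prefix). The sex letter was fitted separately. P-values were Benjamini-Hochberg adjusted over all genes tested. Standard errors were derived from each log2 fold change and its F statistic. Alternatives included DESeq2 1.42.0, other scalings, filters and terms, and left-out libraries. Exon lengths and overlaps came from a GRCm38 annotation. Duplicate libraries were sought in 630 pairs within groups, and the lowest chi-square per degree of freedom was 3.48, so none was counted as a copy. The pipeline was tested on simulated data. Total counts were 11038484 or more per library, and Cfb, with the lowest counts, has the largest counting error.

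The members, gene lists and tests were chosen with earlier results of these data known. Text names the 9 members, the other complement and inflammatory genes called in the comparison described (up to 8 by smallest p), and the 3 genes most like C1qa, C3, C4b and Serping1. Gm20547, the marker shares, the named microglia markers and the values within prefixes were chosen after values were seen.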

Additional observations from a re-analysis of the deposited data

Results flagged for a closer look

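In 144 combinations of member and group with 4 to 10 libraries, 9 held a highest or lowest library set apart from the others by Dixon's ratio at the 95% level, where chance gives about 1 in 20. No explanation of any of them was tested.

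C3 held 4 of the 9. At 200 µM heme-albumin replicate 6 was lowest at 477.8 CPM, at 400 µM replicate 2 was highest at 1215 CPM, in hemeHpx replicate 3 was lowest at 355.3 CPM, and at 400 µM Hb and 24 h replicate 3 was lowest at 81.74 CPM. Serping1 held 3. Replicate 8 of the 24 h controls of batches 2 and 3 was highest at 228.8 CPM, replicate 3 of 400 µM Hb at 24 h was lowest at 39.16 CPM, the same library as the low C3 value, and replicate 2 of 400 µM HbHp at 48 h was highest at 179.4 CPM, the library that also had the highest C3 and Cfb of its group. At 200 µM HbHp and 48 h, replicate 1 had both the highest C1qb, 774.3 CPM, and the lowest C4b, 258.7 CPM, of 8 libraries.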

How the results depend on the processing

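The number of the 9 members called depended on the fit in several comparisons. At 200 µM heme-albumin 3 were called, and 6 with the GC and length correction and 5 with the sex letter as an added term. At 400 µM 4 were called, and 2 with the compared groups alone. HemeHpx against control had 0, and 1 with the groups alone. HbHp against control at 48 h had 1 at 200 µM and 0 with the GC and length correction, no low-count filter, the groups alone or E2 libraries alone. At 400 µM it had 1, 2 with a batch term only or with neither term, and 0 with the groups alone or E2 libraries alone. HbHp against Hb at 48 h had 0, and 1 without batch or prefix term. HbHp against Hp at 48 h had 1, and 0 with a batch term only or neither term. Control 48 h against 24 h had 1, and 0 in E2 libraries alone. Leaving out 1 library at a time gave 0 to 1 call for HbHp at 200 µM and 48 h, 1 to 2 at 400 µM, and 0 to 1 for HbHp against Hp. Values that changed sign were C4b at 200 µM HbHp and 48 h (0.0402 without batch or prefix term), C3ar1 there (−0.15 with the groups alone, −0.0016 in E2 libraries alone) and at 400 µM (−0.0554 with the groups alone), Cfb at 400 µM (−0.736 to 0.944 with 1 library left out, negative without replicate 2), and Serping1 at 400 µM (0.24 with a batch term only, 0.35 with neither). The cause was not tested.

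With the codes in the library names as a replicate block, 200 µM heme-albumin gave 5 calls in place of 3, and 400 µM 5 in place of 4. The added calls included a rise of Cfb at both doses (0.555, adjusted p = 0.017, and 0.48, 0.0228). HemeHpx against control gave 2 in place of 0 (C4b, 0.25, adjusted p = 0.0288, and Cfb, 0.58, 0.0136). HemeHpx against heme-albumin gave 7 in place of 5 (C3ar1, 0.0205, and Serping1, 0.0106, added), with no sign changed. The labels do not explain the codes, so the main fits did not pair libraries by them, and the values above ignore any such pairing. Not every same-code pair correlated above 0.1, which does not decide whether libraries were paired. In batch 1 same-code deviations correlated at a median of 0.192 over 169 pairs (lowest −0.657, 55.6% over 0.1) against −0.0101 over 1331 other pairs, and in batches 2 and 3 at 0.0611 over 291 pairs (lowest −0.607, 42.6% over 0.1) against −0.0248 over 2247, so some sharing by code is seen in batch 1.

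Levels without TMM moved every one of 162 group means by under 1 SD. Depth limits Cfb most, with 2.70 CPM in its lowest library.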

Other observations

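The 21 libraries that the labels put in no group had 150.0, 546 and 987 CPM of C1qa (lowest, median, highest, without TMM), 122, 432 and 813 of C1qb, and 158, 565 and 1067 of C1qc. C3 ran at 62.9, 229.7 and 576, C4b at 274, 367 and 596, Cfb at 2.63, 9.35 and 22.02, C3ar1 at 154, 392 and 543.5, C5ar1 at 42.3, 113 and 154, and Serping1 at 49.5, 69.1 and 128.5 CPM. They are not replicates of 1 group.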
